A study of Mus musculus with 2 samples.

Results

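The genes described here are 37 components of the ATF4 and unfolded protein response pathways, measured in ATDC5, a mouse chondrogenic cell line. They were taken as a named list, and a probe was assigned to a member where its transcript accession was a RefSeq transcript of that gene. All 37 had a probe well above background on both arrays, among 13860 genes so measured and 20657 genes with a probe. They were read by 46 probes at 55 spots, and Ero1a and Ero1b are the current symbols of the genes listed as Ero1l and Ero1lb. The ATF4 arm holds 17 of them and the endoplasmic reticulum (ER) arm 20.

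The study compared 2 stable ATDC5 lines, one expressing GFP as the control and one expressing A-CEBP, each under doxycycline induction. A-CEBP is a dominant-negative inhibitor: it dimerises with members of the C/EBP family and prevents their binding to DNA. Per the labels, both lines were grown on 60 mm dishes, given 2 µg/mL doxycycline over 2 days, and then differentiated with ITS (insulin, transferrin and selenium supplement) for 3 weeks. The labels give no promoter for the transgenes and do not say whether a line was 1 clone. Each group was 1 sample on 1 array, with no replicate, so no test between the groups was possible and every difference compares these 2 arrays.

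Of 59305 spots other than controls, 54.6% on the GFP array and 58.0% on the A-CEBP array passed the scanner's mark for signal well above background, and none was saturated. Levels are log2 processed signal minus the 75th percentile of the array, so 0 is that percentile, and differences are A-CEBP minus GFP. All 8 chondrocyte markers examined, among them Col2a1, Acan and Sox9, were well above background on both arrays, with a median difference of 0.63. Of the defining markers of other cells, Ptprc and Adgre1 (leukocytes), Cdh5 and Tek (endothelium), Myod1 and Myog (muscle) and Epcam (epithelium) were not well above background on either array. Other markers of these cells were measured on both arrays. Of 6 leukocyte markers, Itgam was at 4.43 and 4.67 (0.23), Csf1r differed by -0.14 and Cd14 by -0.84. Of 5 adipocyte markers, Fabp4 was at 1.78 and -0.14 (-1.92), Adipoq and Plin1 were well above background in A-CEBP alone, and Cd36 and Lep on neither array. Of 4 epithelial markers, Krt8 differed by -1.03 and Krt18 by -0.63, and Cdh1 was well above background in A-CEBP alone. Krt8 was dim, at -3.64 and -4.67. The endothelial markers Kdr and Pecam1 differed by 0.09 and -0.20, and the muscle markers Acta1 and Des by 0.79 and -0.06. The part of these markers in the members' differences was not tested. No probe was named for a transgene, so transgene expression was not checked. In such bulk RNA, fewer cells of a type and less RNA per cell cannot be told apart.

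ATF4 is a bZIP transcription factor whose mRNA is translated more efficiently when eIF2alpha is phosphorylated, which happens under amino acid shortage, ER stress and other strains. It binds composite sites together with C/EBP family partners and activates genes of amino acid uptake and synthesis and of stress feedback. The unfolded protein response has further arms, run by ATF6 and by IRE1 with XBP1, which raise ER chaperones, disulfide enzymes and the machinery that degrades misfolded proteins. Chondrocytes secrete large amounts of collagen and proteoglycan and depend on this folding capacity.

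Because A-CEBP acts on factors that share composite sites with ATF4, the promoter windows of the members were searched for the letters of known stress elements, on both strands. The windows run from 250 bases before to 50 after the start site (RefSeq, GRCm38.p6) and were in the table for 35 of the 37 members, not for Manf and Slc7a5. The C/EBP-ATF response element, searched as TGATGNAA, was present in 6 of the 35 members (17.1%), against 4.51% of all 27025 genes with a window. Of those 6, 5 were in the ATF4 arm (Asns, Chac1, Nupr1, Trib3 and Vldlr) and 1 in the ER arm (Herpud1). The ER stress response element, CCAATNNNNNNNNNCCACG, was present in 9 members, all of the ER arm (Hspa5, Hsp90b1, Calr, Canx, Creld2, Dnajc3, Pdia6, Ero1b and Syvn1). Only 37 genes of the 27025 (0.137%) held that element, these 9 among them. Its type II form, ATTGGNCCACG, was present in Herpud1 and Dnajb11, against 0.0444% of genes. The XBP1 element TGACGTGG was in no member's window, and 0.714% of all genes had it. No matches in a member's window overlapped one another. A match is a description of letters, not evidence of binding.

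The stretches below carry these elements, with the fixed letters of each element in capitals. They are shown so that the matched letters can be read beside the members' values, and each is printed 5′ to 3′ on the strand of its gene.
Asns: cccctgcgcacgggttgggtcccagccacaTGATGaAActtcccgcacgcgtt
Chac1: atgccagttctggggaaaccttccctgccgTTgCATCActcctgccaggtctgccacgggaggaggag
Nupr1: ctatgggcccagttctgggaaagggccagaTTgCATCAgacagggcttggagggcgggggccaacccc
Vldlr: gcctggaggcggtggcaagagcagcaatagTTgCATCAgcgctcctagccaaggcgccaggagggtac
Herpud1: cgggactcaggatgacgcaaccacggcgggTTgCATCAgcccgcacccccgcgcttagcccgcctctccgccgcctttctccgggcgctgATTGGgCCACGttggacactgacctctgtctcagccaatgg
Hspa5: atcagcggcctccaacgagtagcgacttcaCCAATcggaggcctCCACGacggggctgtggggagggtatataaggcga
Hsp90b1: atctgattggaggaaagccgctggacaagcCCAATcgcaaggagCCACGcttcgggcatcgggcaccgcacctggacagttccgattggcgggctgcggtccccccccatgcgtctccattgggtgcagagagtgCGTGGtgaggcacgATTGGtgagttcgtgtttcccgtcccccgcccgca
Creld2: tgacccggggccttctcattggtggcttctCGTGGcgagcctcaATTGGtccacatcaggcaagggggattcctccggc
Dnajc3: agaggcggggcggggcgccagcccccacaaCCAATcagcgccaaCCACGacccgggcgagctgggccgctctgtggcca

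On GRCm38.p6 these stretches are upstream of the start sites, at chr6:7693210-7693262 (minus strand) for Asns, chr2:119351019-119351086 (plus) for Chac1, chr7:126625543-126625610 (minus) for Nupr1 and chr19:27216790-27216857 (plus) for Vldlr. The others are at chr8:94386287-94386417 (plus) for Herpud1, chr2:34771995-34772073 (plus) for Hspa5, chr10:86705503-86705686 (minus) for Hsp90b1, chr15:88819490-88819568 (plus) for Creld2 and chr14:118937797-118937875 (plus) for Dnajc3. In Herpud1 the C/EBP-ATF match, at -112 to -105 from the start, was followed by the type II element at -52 to -42. Hsp90b1 held 2 ER stress elements in opposite orientation, at -212 to -194 and at -107 to -89.

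Most members read at nearly the same level on both arrays, and none passed a 2-fold difference. At that size 0 of 37 members were apart, where 1.26% of all genes were higher and 1.7% lower in A-CEBP. At 1.5-fold, 3 were higher (Ddit4, Slc7a5 and Ero1a), against 4.7% of all genes, and none was lower, against 3.8%. The members' median difference was 0.10, beside 0.05 over all genes, and they ranged from -0.27 (Ppp1r15a) to 0.76 (Ddit4). Differences under 0.2 in size were found for 26 of the 37 (70.3%), beside 60.6% of all genes. The comparison with all genes is affected by brightness. With the genes cut by level into 3 equal parts, 30 members were in the brightest and none in the dimmest. Within the brightest, 24 of the 30 members (80%) differed by under 0.2, beside 71.2% of genes. At 1.5-fold, 2.5% of the brightest genes were higher and 1.7% lower, and 1 of the 30 members was higher. Of the middle genes 4.2% were higher and 3.3% lower, and 2 of the 7 members were higher.

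The error of a single difference was taken from the scanner's error model, which gave about 0.20 for a member read by 1 spot. By that measure, 11 of 37 members (29.7%) differed by more than 1 error and 5 (13.5%) by more than 2, beside 36.9% and 14.2% of all genes. The 5 were Ddit4, Slc7a5, Ero1a, Vldlr and Dnajc3. Creld2, the only member with a probe printed 10 times, had spot differences from 0.04 to 0.17 (mean 0.10, SD 0.05). Over all probes with at least 3 spots, the SD between spots was below the scanner error. It was 0.06 in the brightest part and 0.07 in the middle part, where the members lie. Between different probes of a gene the SD was 0.19. These errors cover the measurement and not the spread between cultures.

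**Figure D1:**
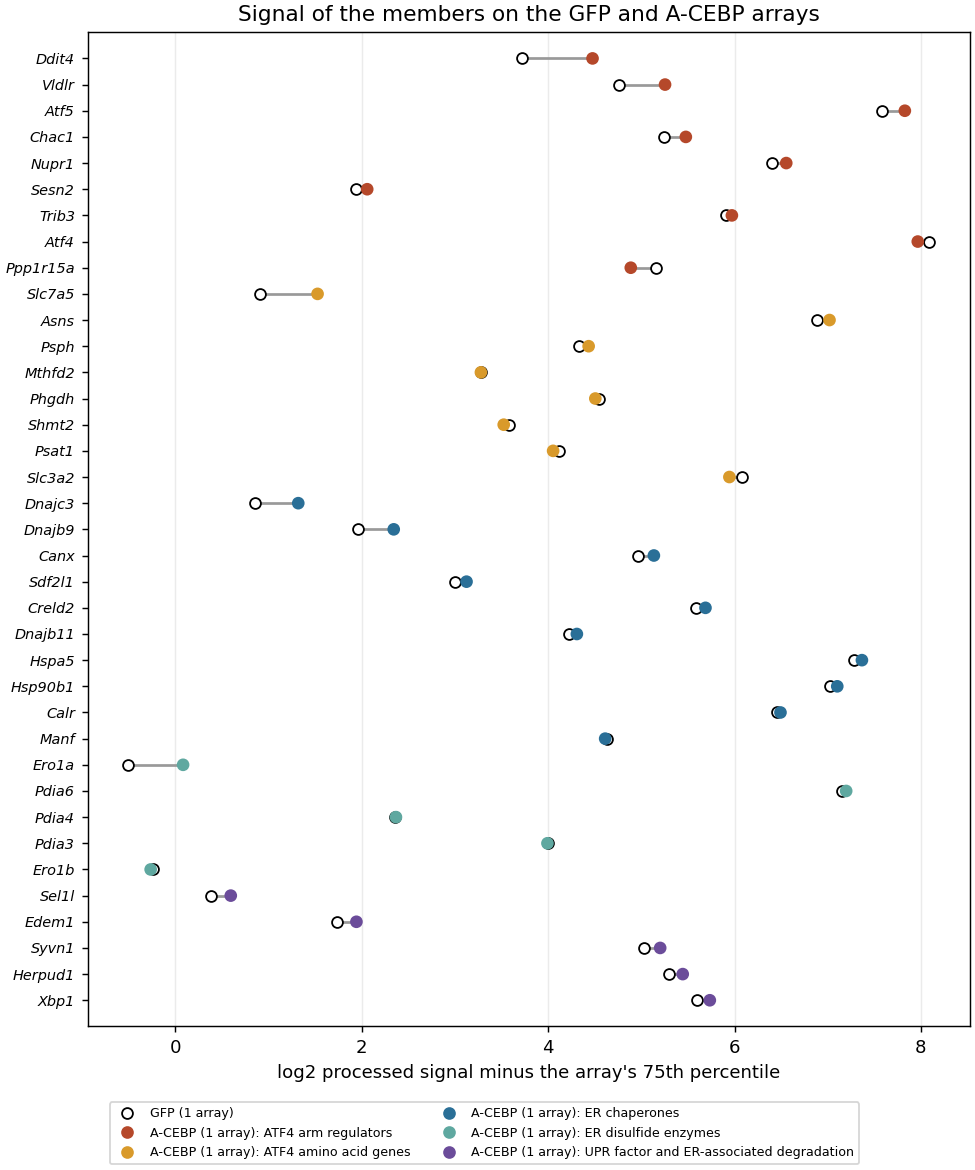
Log2 processed signal minus each array's 75th percentile (x axis) for the 37 members, with the GFP array as open points, the A-CEBP array as filled points coloured by role, and 1 array per group. The pairs nearly coincide for most members, and the widest gaps are those of Ddit4, Slc7a5, Ero1a, Vldlr and Dnajc3; levels of different genes are not comparable, since each comes from its own probe.

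The factor ATF4 itself was read at 8.09 on the GFP array and 7.97 on the A-CEBP array, a difference of -0.13, and at -0.28 by its other probe. Since ATF4 is controlled mainly at translation, its mRNA level does not report its protein. Atf5, a close relative that is translated under the same control, was at 7.59 and 7.83 (0.24). Both genes were within 1.5-fold on the 2 arrays, and the sign for Atf4 turned to 0.10 with scaling on spike-in spots.

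Feedback and stress outputs of ATF4 differed more among themselves than any other group of members, with a median of 0.16 over 9 genes and an SD of 0.31. Ddit4, which encodes an inhibitor of mTORC1, was at 3.72 and 4.48, 1.69-fold higher in A-CEBP (0.76), the largest difference of any member. Vldlr, the very low density lipoprotein receptor, was at 4.76 and 5.25 (0.50), and its other probe differed by 0.71. Those were the 2 members of this group more than 2 scanner errors apart. Chac1, which encodes a glutathione-degrading enzyme, was at 5.24 and 5.48 (0.24), and Trib3, a pseudokinase that restrains ATF4, was at 5.91 and 5.97 (0.07). Nupr1, a stress-induced chromatin protein, was at 6.40 and 6.56 (0.16), and Sesn2, a leucine sensor upstream of mTORC1, at 1.94 and 2.06 (0.12). Ppp1r15a, which encodes the phosphatase subunit GADD34 that reverses eIF2alpha phosphorylation, was at 5.16 and 4.89 (-0.27), the lowest difference of any member. It was the one member of this group other than Atf4 that read lower in A-CEBP, by 1.21-fold, and stayed below 0 in all 9 settings of scaling and background, from -0.34 to -0.04.

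The amino acid genes of ATF4 were the flattest part of this arm, with a median of -0.02 over 8 genes. Without Slc7a5, the other 7 lay between -0.13 and 0.13. Asns, asparagine synthetase and a classic ATF4 target, was at 6.88 and 7.02 (0.13). The serine synthesis enzymes, which act in sequence, were level: Phgdh was at 4.54 and 4.51 (-0.04), Psat1 at 4.12 and 4.05 (-0.06) and Psph at 4.34 and 4.44 (0.10). The second probes of these enzymes differed by -0.02, -0.16 and 0.01. The mitochondrial one-carbon enzymes Shmt2 and Mthfd2 were at 3.58 and 3.52 (-0.06) and at 3.28 and 3.28 (-0.0011). None of these differences was larger than the scanner error.

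The exception was Slc7a5, the light chain of the LAT1 transporter for large neutral amino acids, at 0.91 and 1.53 (0.62, 1.54-fold). Its other probe, at -1.59 and -1.73, gave -0.14, so that the 2 probes of the gene disagreed by 0.76, the widest gap among the 9 members with several probes. Its partner Slc3a2, the heavy chain that carries LAT1 to the cell surface, was at 6.08 and 5.95 (-0.13). The difference of Slc7a5 therefore rests on 1 spot and was not shared by its other probe. Ddit4 and Ero1a were also read by 1 spot each, with no second probe to compare.

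**Figure D2:**
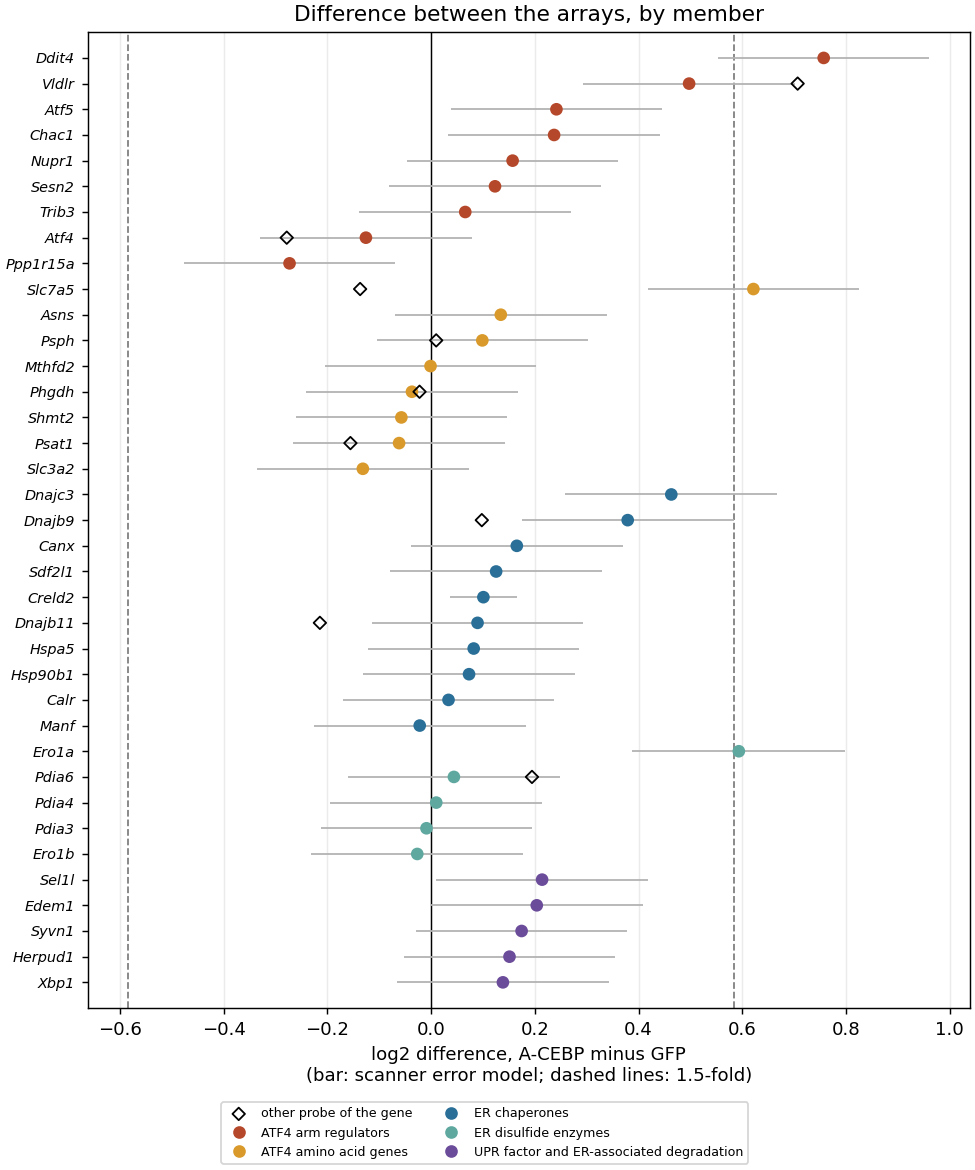
Log2 difference, A-CEBP minus GFP (x axis), for each member, coloured by role, with bars of 1 scanner error to each side, diamonds for the other probes of a gene, and dashed lines at 1.5-fold. Ddit4, Slc7a5 and Ero1a lie past the upper line, no member lies past the lower one, and the second probe of Slc7a5 lies at -0.14.

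The abundant ER chaperones differed little. Hspa5, which encodes BiP, the main ER Hsp70 and sensor of unfolded protein, was at 7.28 and 7.37 (0.08), and Hsp90b1, the ER Hsp90, at 7.03 and 7.10 (0.07). The lectin chaperones Calr and Canx were at 6.46 and 6.49 (0.03) and at 4.97 and 5.13 (0.17). Creld2 was at 5.59 and 5.69, Sdf2l1, a BiP cofactor, at 3.00 and 3.13 (0.13), and the secreted stress protein gene Manf at 4.63 and 4.61 (-0.02). The median of the 10 chaperones was 0.10, and 8 of them lay between -0.02 and 0.17. None of the 10 was 1.5-fold apart, where 4.7% of all genes were higher and 3.8% lower, so a count of 0 among 10 says little.

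The other 2 chaperones were BiP cochaperones of the J-domain family. Dnajc3, the p58IPK cochaperone, was at 0.86 and 1.32 (0.46, 1.38-fold), and Dnajb9, the ERdj4 cochaperone, was at 1.96 and 2.34 (0.38), with 0.10 by its other probe. Another J-domain member, Dnajb11, was at 4.22 and 4.31 (0.09), and its dim second probe gave -0.21. The 3 genes thus differed by unequal amounts, and only for Dnajc3 was the difference over 2 scanner errors.

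Among the enzymes that form disulfide bonds, the protein disulfide isomerases were level, with Pdia3 at 4.0 and 3.99 (-0.0089), Pdia4 at 2.36 and 2.37 (0.0099) and Pdia6 at 7.15 and 7.20 (0.04). The ER oxidases, which pass electrons from these isomerases to oxygen, split. Ero1a was at -0.51 and 0.08 (0.59, 1.51-fold), just past 1.5-fold, whereas Ero1b was at -0.24 and -0.26 (-0.03). Apart from Ero1a, the 4 other enzymes lay between -0.03 and 0.04 by their brightest probes, and the second probe of Pdia6 gave 0.19.

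Xbp1 and the genes of ER-associated degradation gave the most even differences of any group, from 0.14 to 0.21 with an SD of 0.03 over 5 genes. That SD was below the spread of measurement, 0.06 to 0.07 between spots and 0.19 between probes of a gene. The 13 other degradation genes had an SD of 0.21. Xbp1, the factor whose mRNA is spliced by IRE1, was at 5.60 and 5.74 (0.14), and whether its probe distinguishes the spliced form was not determined. Herpud1, a scaffold of the degradation complex, was at 5.29 and 5.44 (0.15), and Edem1, which directs misfolded glycoproteins to it, at 1.74 and 1.94 (0.20). Syvn1, the ubiquitin ligase HRD1, was at 5.03 and 5.20 (0.17) and its adaptor Sel1l at 0.38 and 0.60 (0.21). Each of these was within about 1 scanner error of 0. Their median of 0.17 compares with 0.05 for all genes and kept above the all-gene median in each of the 9 settings, by 0.09 to 0.16.

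The differences were set beside the elements found in the windows. The 6 with the C/EBP-ATF element had a median of 0.15 and ranged from 0.07 (Trib3) to 0.50 (Vldlr), and 4 of them were under 0.2 in size. The others with a window had a median of 0.09. The 9 with the ER stress response element had a median of 0.08, and the others with a window 0.12. Both gaps between medians were smaller than the scanner error of a member read by 1 spot. Of the 11 with either ER stress element, 10 were under 0.2 in size, the median was 0.09, and Dnajc3 was the exception. Ddit4 and Ero1a, which differed most among the members with a window, matched none of the 4 elements there.

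**Figure D3:**
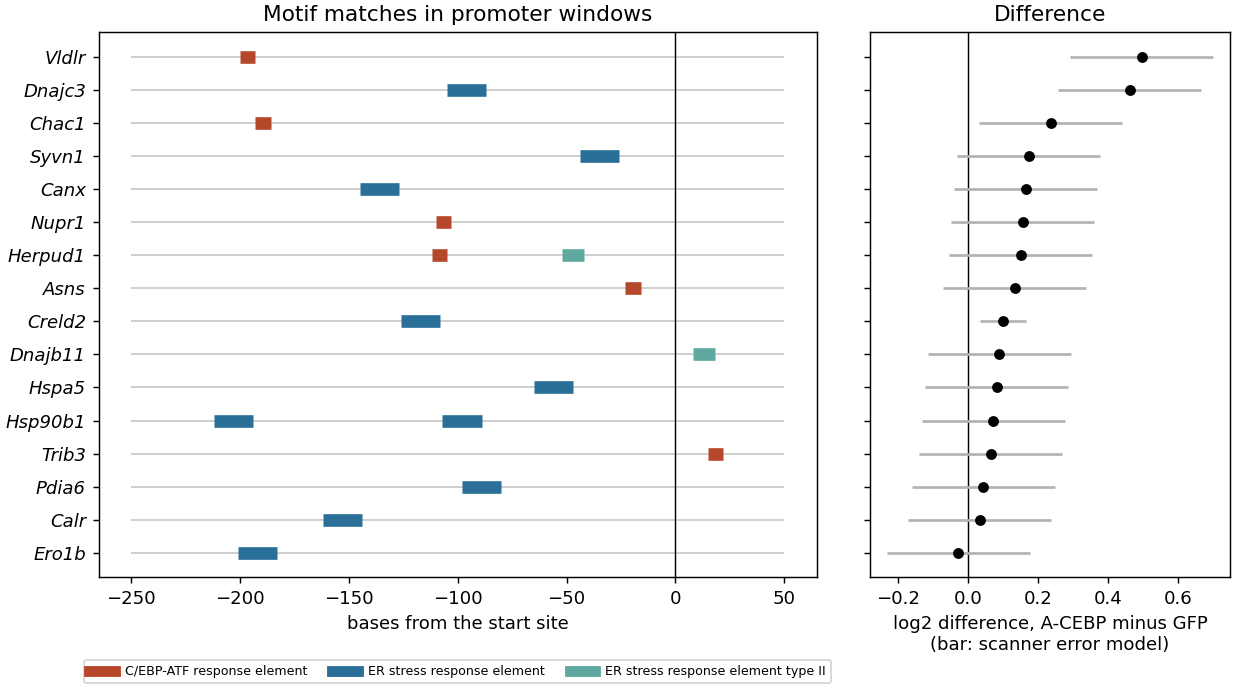
Left, matches of 3 stress elements within promoter windows of 16 members (x axis: bases from the start site); right, the log2 difference, A-CEBP minus GFP, of the same genes with bars of 1 scanner error. Genes with the C/EBP-ATF element and genes with an ER stress element are interleaved from -0.03 (Ero1b) to 0.50 (Vldlr).

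Other genes of the pathways were examined as lists, of which 104 genes were measured on both arrays. Of these, 3 were at least 1.5-fold higher in A-CEBP and 3 lower, beside 4.7% and 3.8% of all genes. Their median was 0.09. The cytosolic tRNA synthetases, many of them ATF4 targets, were flat: all 13 genes, the tRNA exporter Xpot among them, lay between -0.17 (Mars1) and 0.20 (Yars), with a median of 0.0032, and Lars and Gars differed by -0.10 and 0.09. In the further amino acid transporters (8 measured, median 0.05), Slc7a3, a transporter of cationic amino acids, was 1.72-fold higher (0.78), and Slc7a11, Slc1a4 and Slc7a1 differed by -0.13, 0.10 and 0.10. In further amino acid and one-carbon synthesis (8 measured, median 0.16), Mthfd1l differed by 0.36, Gpt2 by 0.21, Aldh1l2 by 0.20 and Aldh18a1 by 0.17, none of them 1.5-fold. Further stress outputs, some of them secreted (5 measured), went both ways. Jdp2 differed by 0.57, Stc2 by 0.31 and the stress cytokine gene Gdf15 by -0.48. Adm2 differed by 0.56 at dim levels, -3.39 and -2.82, with a scanner error of 0.25. The probe of Fgf21 was not well above background on either array.

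The remaining ER lists were near the ER members, with medians of 0.15 for other folding factors (20 genes), 0.13 for other degradation genes (13 genes) and 0.14 for translocation and vesicle genes (19 genes). Among folding factors Erp29 differed by 0.40, Sil1 by 0.36, Erp44 by 0.34 and Fkbp7 by 0.21. Among degradation genes Edem3 differed by 0.57, Ubxn4 by 0.39, Vcp by 0.26 and Derl1 by 0.17. Ubxn4 was dim, at -3.24 and -2.85, with a scanner error of 0.26. Past 1.5-fold were 2 of the 19 translocation and vesicle genes, both higher, and none of the 20 folding or 13 degradation genes. Of all genes, 4.7% were higher and 3.8% lower by that size. The 2 were Creb3l1, a membrane-bound bZIP factor of secretory cells (0.67), and Kdelr3, a receptor that returns proteins to the ER (0.61). Sec24d and Sec62 differed by 0.34 and 0.29.

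Upstream of the members, the sensors of ER stress were within 1.5-fold. Eif2ak3, which encodes the eIF2alpha kinase PERK, differed by 0.42, Ern1, which encodes IRE1, by -0.35, and Atf6 and Atf6b by -0.05 and -0.18. The ATF6 proteases Mbtps1 and Mbtps2 differed by 0.12 and -0.04, and Eif2s1, the eIF2alpha gene, by -0.03. The amino acid sensor kinase gene Eif2ak4 (GCN2) differed by -0.24, Eif2ak1 by 0.04, and the phosphatase subunit gene Ppp1r15b by -0.17. The exception was Eif2ak2, the double-stranded RNA kinase PKR and an interferon-induced gene, at 1.12 and 0.09, 2.05-fold lower in A-CEBP (-1.03).

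The bZIP factors that can pair with ATF4 had a median of -0.41 over 7 genes, the lowest median of the pathway lists, from -0.46 to -0.18 over the 9 settings. Cebpd was at 6.31 and 4.42, 3.69-fold lower in A-CEBP (-1.88), and Cebpb at 4.83 and 3.89, 1.92-fold lower (-0.94). Ddit3, which encodes CHOP, was at 4.90 and 4.49 (-0.41), Atf3 at 3.00 and 2.59 (-0.41) and Nfe2l2 at 3.90 and 3.50 (-0.40). Cebpg, a C/EBP partner of ATF4, was at 1.29 and 1.16 (-0.13, or 0.10 with spike-in scaling), and Cebpa differed by 0.23.

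Hypoxia-induced genes were examined as a further list. Of the 5 members more than 2 scanner errors apart, Ddit4, Ero1a and Vldlr are also known as genes induced by low oxygen. In a list of 12 hypoxia-induced genes written after these values had been seen, all 12 read higher in A-CEBP, from 0.34 (Ndrg1) to 2.04 (Ankrd37), with Egln3 at 2.00, Adm at 1.38 and Bnip3 at 1.33 next to the highest. Their median was 1.08, and it stayed between 1.01 and 1.32 over the 9 settings. Of the 12, 10 were at least 1.5-fold and 7 at least 2-fold higher, beside 4.7% and 1.26% of all genes. Since the list was written with the values seen, its direction, its median over the settings and these counts describe it and test nothing. The part of the hypoxia genes in the differences of Ddit4, Ero1a and Vldlr was not tested. Chondrocyte markers, with 6 of 8 at least 1.5-fold higher beside 4.7% of all genes, read higher too, and their part was not tested either.

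**Figure D4:**
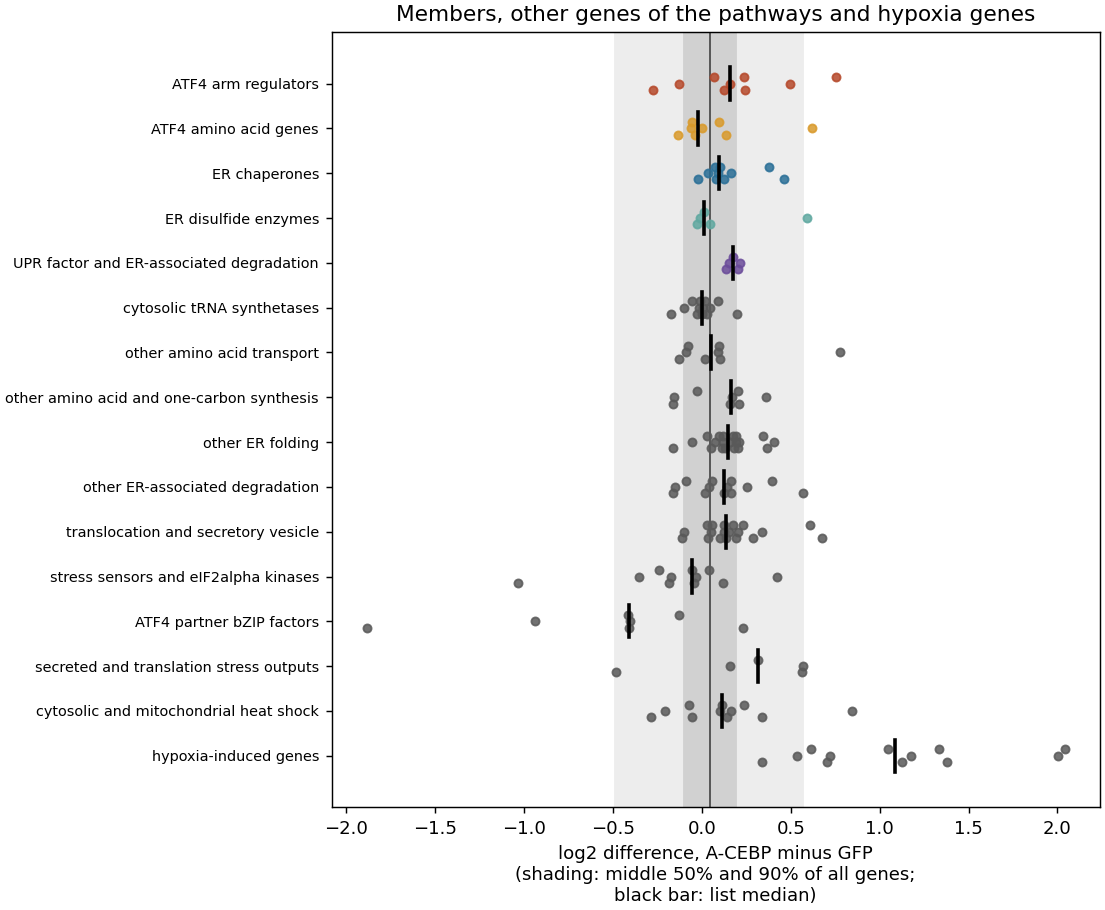
Log2 difference, A-CEBP minus GFP (x axis), of single genes in the member lists (coloured), the other pathway lists, the heat shock list and the hypoxia list (grey); black bars are list medians, and shading spans the middle 50% (-0.10 to 0.19) and 90% (-0.49 to 0.57) of all genes. Most members lie in the darker band, the bZIP partners reach down to -1.88 and the hypoxia genes reach up to 2.04.

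The choice of processing moved the members together more than one by one. With scaling on spike-in spots the all-gene median went from 0.05 to 0.28 and the members' median from 0.10 to 0.33. In all, 16 of the 37 members changed sign in at least 1 of the 9 settings. Relative to the all-gene median of the same setting, 18 members lay above it in every one of the 9, 11 below it in every one and 8 on both sides. Ddit4 was the one member at least 1.5-fold higher under every alternative, from 0.70 to 0.99. Slc7a5 and Ero1a were under 1.5-fold with cyclic loess, normexp background and the authors' deposited values. With the mean of a gene's probes Slc7a5 was replaced by Vldlr. No member reached 2-fold under any of them.

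**Figure D5:**
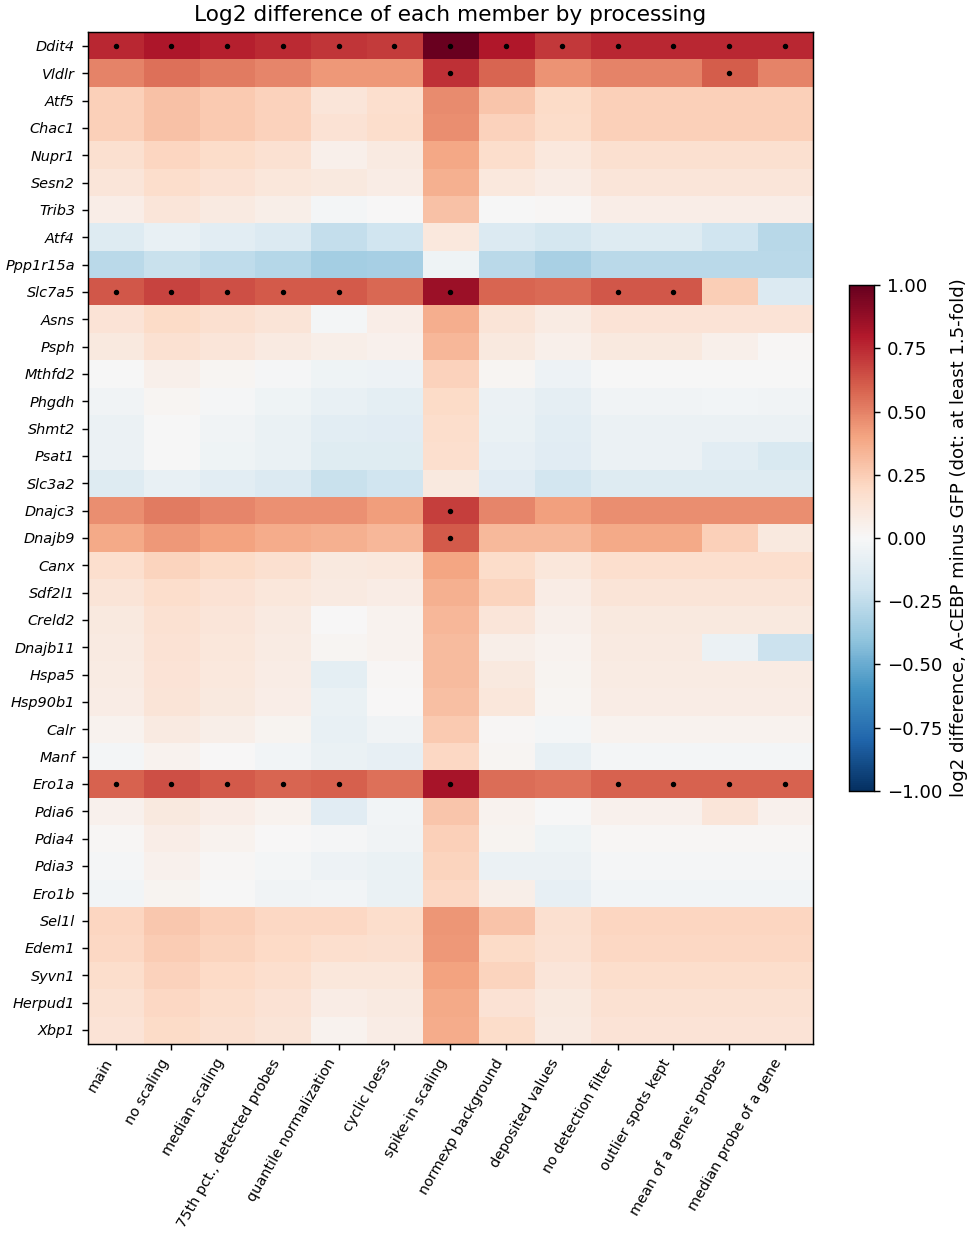
Log2 difference, A-CEBP minus GFP (colour), of each member (rows) under the main processing and 12 alternatives (columns), with a dot where the member was at least 1.5-fold apart. Ddit4 has a dot in every column, spike-in scaling turns nearly all members towards red, and Slc7a5 turns to -0.14 when the median probe is taken.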

How the data were processed

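Total RNA (0.1 µg per sample) was labelled with Cy3 and hybridised to 1-colour Agilent arrays, per the labels' protocols. In the scanner files the authors deposited, each spot has a linear intensity from Agilent Feature Extraction 10.10.1.1, which had subtracted background and removed spatial trends on that array alone, per the file headers and the submitters' processing notes. Per the file headers, 1 slide and 1 scan held both arrays. The deposited series table also holds intensity, which equals the processed signal times 1 constant per array (1.24 for GFP, 1.15 for A-CEBP); it is linear and not centred (column medians 70.9 and 67.4), and the basis of these constants was not stated in the sources at hand.

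From these, log2 of the processed signal minus each array's 75th percentile was taken, with control spots and 293 outlier spots left out (none of them a member's) and replicate spots averaged. Detection of a probe required the scanner's mark for signal well above background on over 50% of its spots. Each gene's value came from its brightest probe well above background on both arrays. Of 55671 probes, 27229 (48.9%) matched 1 gene of the RefSeq table of GRCm38.p6, used for names. The scanner error of a difference combined the software's error of both signals. With 1 array per group no p-value was computed, and sizes were read against 1.5-fold and 2-fold. The number of arrays limits the precision.

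The members and lists were chosen with earlier results of these data known, and the hypoxia list after the values had been seen. Every member is named, with all stress sensors and bZIP partners and, from each other pathway list, the heat shock list and the hypoxia list, the 4 genes with the largest differences. Ndrg1, the lowest of the hypoxia list, and the chondrocyte markers given by name stand outside that rule and were chosen with their values seen. All markers of other cells measured on both arrays are given. Gene-level steps were tested on simulated data. The scanner files used here have no mean-signal column, so the normexp alternative (limma 3.58.1, offset 50) used the median signals. The other steps used Python 3.11.15, pandas 2.3.3 and R 4.3.3.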

Additional observations from a re-analysis of the deposited data

How the results depend on the processing

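Over 12 alternatives, 402 of the member differences stayed within 1 scanner error of the main value, 41 moved by more and 1 changed sign while past 1.5-fold: Slc7a5, at -0.14 with the median probe of a gene. Spike-in scaling raised the medians of all members, the ATF4 members and the ER members to 0.33, 0.33 and 0.34. It raised those of the ATF4 regulators, amino acid genes, chaperones, disulfide enzymes and Xbp1 with the degradation genes to 0.39, 0.21, 0.33, 0.24 and 0.40. The count of members at least 1.5-fold higher was 3 in the main processing, beside 652 of the 13860 genes. It was 6 with spike-in scaling, beside 1608 genes. It was 1 each with cyclic loess (beside 582 genes), normexp background (402) and the deposited values (535). Over all genes, 652 were at least 1.5-fold higher and 527 lower, and 174 and 236 at 2-fold. Spike-in scaling gave 1608 and 338 at 1.5-fold and 358 higher at 2-fold. Normexp gave 402 higher at 1.5-fold and 97 at 2-fold. Without the detection filter there were 1553 higher and 1679 lower at 1.5-fold, and 603 and 883 at 2-fold, since dim probes then enter. The cause of the other shifts was not tested. The normexp setting on median signals was chosen after seeing the files. No paired analysis was possible because each group held 1 sample, and for the same reason no replicate could be left out. Signal over background did not limit the members, all of which were well above it, but the 3 members past 1.5-fold were each read there by 1 spot.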

Other observations

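Heat shock genes of the cytosol and mitochondria, many of them controlled by HSF1, were set beside the members. Their differences had an SD of 0.30, beside 0.16 for the ER members and 0.42 for all genes. Of 11 measured on both arrays, 6 (54.5%) differed by under 0.2, beside 60.6% of all genes, with a median of 0.12 and a range from -0.29 to 0.84. At least 1.5-fold higher in A-CEBP was 1 gene, beside 4.7% of all genes, and none was lower, beside 3.8%. Hspa1a, the inducible Hsp70, was at -0.54 and 0.31 (0.84, 1.79-fold), and its near-identical copy Hspa1b, to which no probe was assigned, may contribute to that signal. Bag3 differed by 0.34, Hspb1 by 0.23 and Hsph1 by -0.29.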
